A study of Mus musculus with 2 samples.

Results

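The genes of the mitochondrial respiratory chain were measured in single cells of the mammary gland shortly before birth, in mice lacking the epithelial transcription factor Ehf, which belongs to the ETS family, and in wild type mice. The members were every gene whose symbol begins with Ndufa, Ndufb, Ndufc, Ndufs, Ndufv, Uqcr, Cox4 to Cox8 or Atp5, the genes Sdha to Sdhd, Cyc1 and Cycs, and the protein-coding genes of the mitochondrial genome, with names holding "-ps" left out. They came to 113 of the 27179 features in the files, 100 encoded in the nucleus and 13 in mitochondrial DNA. The nuclear members were 41 of complex I, 4 of complex II, 9 of complex III, 1 cytochrome c gene, 20 of complex IV, 17 of ATP synthase and 8 assembly factors of complex I, whose Ndufaf symbols the rule also takes. The mitochondrial members encode 7 subunits of complex I, 1 of complex III, 3 of complex IV and 2 of ATP synthase.

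The tested library held mammary cells of the strain labelled EhfKO (KO), and the other those of wild type mice (WT). Both came from adult females at 18.5 days of pregnancy, and each pooled the glands of 2 females, so that there was 1 library per genotype. The sort discarded cells bearing Ter119, CD31 or CD45, which mark erythroid, endothelial and blood cells, and the libraries were made with the 10x 3' V3 kit, whose unique molecular identifiers (UMIs) count transcripts by their 3' ends. The labels name no other allele, Cre driver or treatment.

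Complexes I and II feed electrons from NADH and succinate into ubiquinone, complex III passes them to cytochrome c, and complex IV hands them to oxygen. Complexes I, III and IV pump protons across the inner mitochondrial membrane, and ATP synthase uses the returning protons to make ATP. Complexes I, III, IV and ATP synthase join subunits made from nuclear and from mitochondrial genes, complex II only nuclear ones, and the mitochondrial genes are transcribed as long strands that are cut into messenger and ribosomal RNAs. Alveolar cells of the mammary gland fill with mitochondria towards lactation, when milk protein, lactose and lipid synthesis draw on ATP.

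The promoters of 2 ATP synthase genes are shown because they gave the widest contrast among abundant members, Atp5k with the lowest KO over WT ratio in milk-forming cells and Atp5g2 with the highest. Both run from 250 bases before to 50 after the start, from RefSeq on GRCm38.p6, on the minus strand, at chr5:108434350-108434649 for Atp5k and chr15:102670998-102671297 for Atp5g2. Capitals mark the core that the respiratory factor NRF1 binds, GCGCATGCG, here matched on both strands in overlapping letters, and in Atp5k also a short ETS motif, CCGGAAG, on the other strand.
Atp5k: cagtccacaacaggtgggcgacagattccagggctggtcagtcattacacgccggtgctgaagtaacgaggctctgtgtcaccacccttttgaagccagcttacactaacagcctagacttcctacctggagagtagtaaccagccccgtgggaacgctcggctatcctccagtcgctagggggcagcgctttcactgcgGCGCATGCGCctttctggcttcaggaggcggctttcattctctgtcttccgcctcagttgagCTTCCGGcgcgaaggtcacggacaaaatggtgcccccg
Atp5g2: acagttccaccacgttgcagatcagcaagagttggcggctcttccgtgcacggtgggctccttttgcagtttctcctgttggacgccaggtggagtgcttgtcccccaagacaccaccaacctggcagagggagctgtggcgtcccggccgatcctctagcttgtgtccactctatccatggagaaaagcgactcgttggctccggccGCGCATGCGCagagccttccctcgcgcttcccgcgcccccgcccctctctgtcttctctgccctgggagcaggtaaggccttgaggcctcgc
Of the 100 nuclear members 79 had a promoter in that table. The NRF1 core stood on either strand in 13.9% of them, against 4.44% of the promoters of all 8714 measured genes with an entry and 1.95% of all 27025 genes in the table. The short ETS motif stood in 24.1% of member promoters, against 21.6% of measured genes and 9.93% of all genes. The longer ETS motif CCGGAAGT, which contains the short one, was in 6.33% of members, against 9.83% of measured genes and 4.31% of all. The core of YY1, AAGATGGCG, was in 10.1%, against 3.94% and 1.64%. Among members at least 1.5-fold lower in KO luminal secretory cells, 4 of 32 held the NRF1 core and 10 the short ETS motif, and among the other measured members 7 and 9 of 45. These matches describe letters in a window and were not tested as binding sites.

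In the mitochondrial genome, 2 pairs of members share bases on 1 transcript, so that the files' counts of neighbours rest on the same message. ATP8 and ATP6 overlap by 43 bases and ND4L and ND4 by 7, in capitals below with 20 bases on each side, read from GENCODE transcripts on the plus strand of GRCm38 at chrM:7907-7989 and chrM:10147-10193.
ATP8 and ATP6: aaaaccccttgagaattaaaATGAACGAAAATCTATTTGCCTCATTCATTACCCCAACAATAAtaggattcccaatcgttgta
ND4L and ND4: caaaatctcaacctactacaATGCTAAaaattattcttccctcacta
The sources used here do not say how reads in these overlaps were counted, and the split within each pair is uncertain.

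After filtering, 6561 KO and 9089 WT cells were kept. Clusters were named from markers, with the member genes kept out of the clustering. Luminal secretory cells joined alveolar-like and luminal progenitor-like clusters and numbered 828 in KO and 2567 in WT, with a median of 10543 and 9004 UMIs. Basal cells numbered 5522 in KO and 6223 in WT, with medians of 3683 and 2042 UMIs, and hormone-sensing cells 151 and 123, with medians of 7784 and 4334. The alveolar markers, taken over all UMIs, summed to 84219.9 CPM in KO and 367519 CPM in WT luminal secretory cells. The 12 milk protein genes took 10.5% of the UMIs in KO and 39.3% in WT. Different clusters held most of the class: the luminal progenitor-like cluster had 88.0% of the KO and 20.3% of the WT cells, and the main alveolar-like cluster 3.26% and 63.5%. Basal clusters were also split by library, with 2128 KO and 240 WT cells in one led by Ccl2 and 128 KO and 2489 WT cells in one led by Scn7a. Ehf itself had 1081 UMIs in KO and 3353 in WT luminal secretory cells, a log2 ratio of -1.37, and 79 and 156 in basal cells, a ratio of -1.69. In hormone-sensing cells its ratio was only -0.26. The sources used here do not say which part of the gene was deleted, so that 3' counts outside that part would not check the genotype. The doublet caller marked 122 WT and 0 KO cells, and 15 kept barcodes occurred in both libraries.

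Levels of nuclear members are given as CPM, the UMI count scaled to a common total of the UMIs outside milk protein and mitochondrial genes, and levels of mitochondrial members as a percentage of the UMIs outside milk protein genes, since milk UMIs take such different shares of the cells. Each UMI stands for 1 captured transcript end, so no length scaling was applied. Intervals are 95% intervals for counting error alone. No test was made, since each genotype had 1 library. On this scale the summed nuclear members stood at 28613 CPM in KO and 38820.0 CPM in WT luminal secretory cells, the largest gap between libraries in CPM among the 6 cell classes. Basal cells had 21242 CPM in KO and 21488 CPM in WT, about the same level. Hormone-sensing cells had 38609 CPM in KO and 43242 CPM in WT, the highest level in each library. Endothelial cells had 18383 and 20797 CPM in KO and WT, fibroblasts 14283 and 11361 CPM, and myeloid cells 18284 and 17235 CPM, from 7 to 92 cells each. Luminal secretory cells lay next below hormone-sensing cells in both libraries, with the nuclear members at 2.86% of these UMIs in KO and at 3.88% in WT.

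The summed mitochondrial members followed a similar order. They took 6.49% in KO and 9.02% in WT luminal secretory cells, 5.42% and 5.60% in basal cells, and 7.49% and 8.22% in hormone-sensing cells. In WT the luminal secretory cells had the highest mitochondrial level of the 6 classes, whereas in KO the hormone-sensing cells did. Fibroblasts were lowest in both libraries, at 3.28% in KO and 3.07% in WT. Mitochondrial UMIs outnumbered nuclear member UMIs by 2.44 to 1 in KO and 2.57 to 1 in WT luminal secretory cells, and by 2.72 and 2.78 to 1 in basal cells. Cells over 20% mitochondrial UMIs were left out beforehand, which limits these levels from above. The 2 mitochondrial ribosomal RNAs, which are not members, took 0.481% in KO and 0.436% in WT luminal secretory cells.

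**Figure D1:**
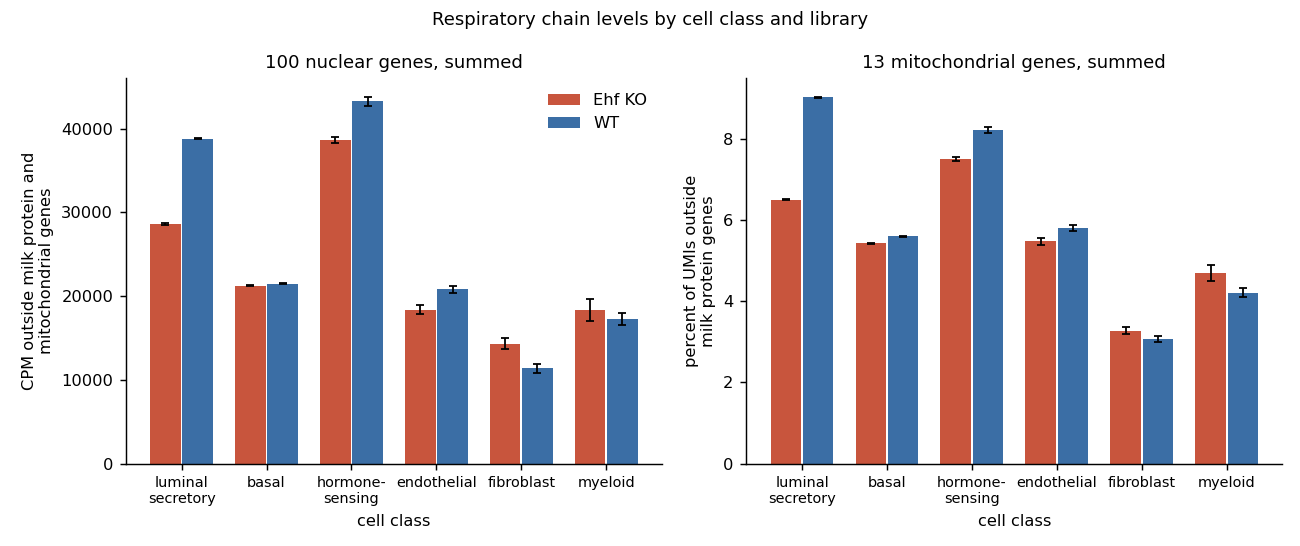
Summed level of the 100 nuclear (left) and 13 mitochondrial (right) respiratory chain genes in 6 cell classes, with the KO library left of the WT library in each pair and thin lines for the 95% counting interval. The KO bar is well below the WT bar in luminal secretory cells, at 28613 against 38820.0 CPM and 6.49% against 9.02%, and close to it in basal cells.

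The complexes differed in how far KO lay below WT in luminal secretory cells. Complex IV subunits summed to 8097 CPM in KO and 11525 CPM in WT, and ATP synthase subunits to 8467 and 11566 CPM. Complex I summed to 7784 CPM in KO and 9957 CPM in WT, complex III to 3186 and 4459.8 CPM, and complex II to 396 and 462 CPM. The assembly factors of complex I went the other way, at 244 CPM in KO and 214 CPM in WT.

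Gene by gene, log2 ratios of KO over WT were centred on the median of all genes with at least 50 UMIs, and a gene was counted as higher or lower at 1.5-fold, a rule of size. The scale matters here. Before scaling, the median gene of luminal secretory cells stood at 0.87 in plain CPM, when milk UMIs took less of the KO than of the WT class. Of the 94 nuclear members with enough UMIs, 41 were lower and 3 higher, at a median of -0.52, where 18.0% of all 11178 genes were lower and 15.4% higher. All 13 mitochondrial members were lower, with a median of -0.79. As CPM outside milk protein genes the split was 17 lower and 4 higher for nuclear members, with a median of -0.22, and 4 lower for mitochondrial members, with a median of -0.48. In plain CPM, where the milk UMIs enter the total, it was 1 lower and 16 higher for nuclear members, with a median of 0.34, and 1 lower for mitochondrial members, with a median of 0.08. The direction of both groups as a whole therefore rests on the scale, and what follows is relative to the median gene. The ratios are centred and the CPM levels beside them are not: on the scale of those levels the median of all genes stood at 0.27 and that of the nuclear members at -0.26. On all 3 scales 18 nuclear members (Atp5k, Atp5md, Atp5mpl, Atp5o, Cox5a, Cox6a1, Cox7c, Ndufa1, Ndufa11b, Ndufa3, Ndufb4b, Ndufb6, Ndufb7, Ndufc1, Ndufv3, Uqcr10, Uqcr11 and Uqcrq) and 4 mitochondrial ones (ND3, ND4L, ND5 and ND6) lay below 0, and 6 nuclear ones (Atp5g2, Cox6b2, Cox7a2l, Cox8b, Ndufaf6 and Ndufaf8) lay above 0. The scales differ by a constant added to every gene, so they are not separate checks. Those below 0 on all 3 are the members whose centred ratio lay more than 0.87 below 0, and those above are all members above 0 when centred. The share of all genes meeting these cuts was not counted.

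The KO side of this comparison came mostly from the luminal progenitor-like cluster and the WT side from the main alveolar-like one. In plain CPM the 11 basal markers, all detected, summed to 925 CPM in KO and 443 CPM in WT luminal secretory cells. The 12 hormone-sensing markers summed to 72.6 and 38.2 CPM on that scale, where the median gene itself stood at 0.87. All 8 cell cycle genes were higher in KO, with a median of 0.99, and 2 of 10 dissociation stress genes were lower, with a median of -0.49. Their part in the results was not tested.

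**Figure D2:**
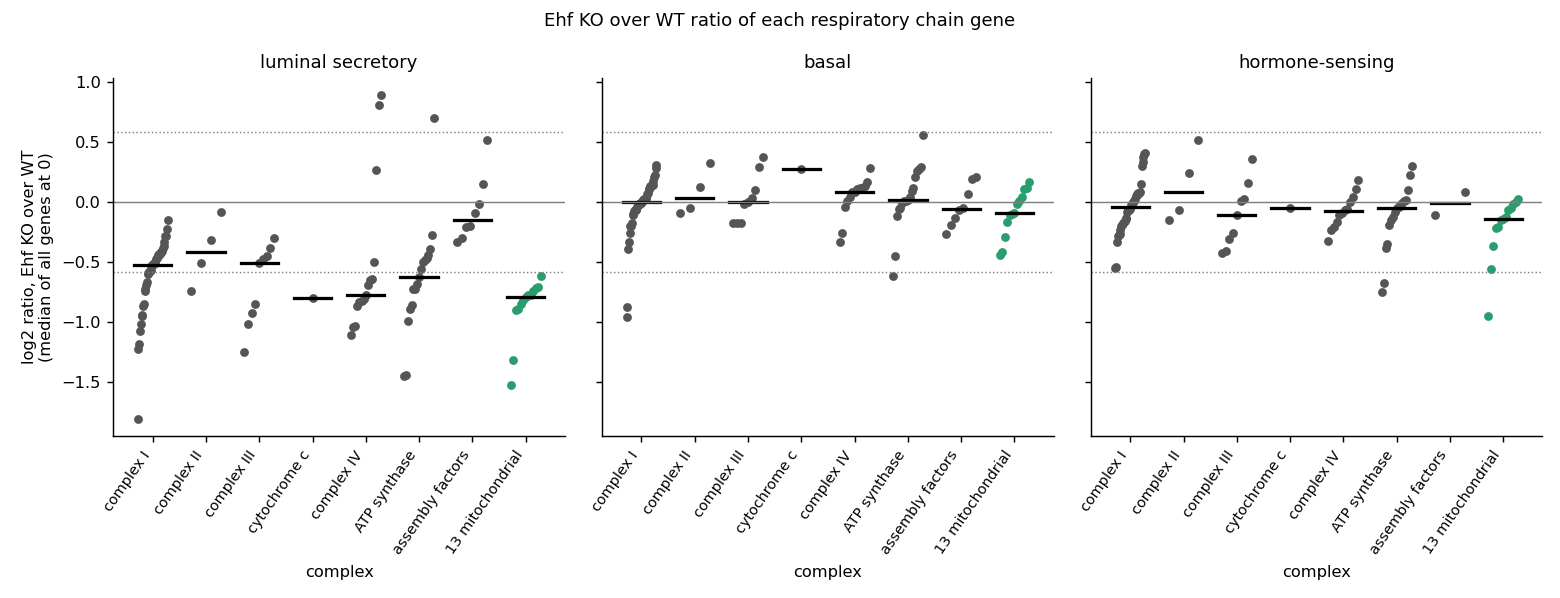
Log2 ratio of KO over WT for each member with at least 50 UMIs in luminal secretory (left), basal (middle) and hormone-sensing cells (right), by complex, with nuclear genes in grey and mitochondrial genes in green. Points are genes, short lines medians and dotted lines the 1.5-fold rule. In luminal secretory cells the nuclear medians lie between -0.80 for cytochrome c and -0.15 for assembly factors, and in the other classes all lie within the 1.5-fold lines.

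In complex I, which oxidises NADH, 15 of 40 measured nuclear subunits were lower in KO luminal secretory cells and 0 higher, at a median of -0.52. Ndufa1, a small membrane subunit, had 174 CPM in KO cells and 337 CPM in WT cells, a log2 ratio of -1.22 (interval -1.30 to -1.15). Ndufv3, a subunit of the NADH-oxidising module, had 204 CPM in KO cells and 357 CPM in WT cells, a ratio of -1.08. Ndufc1 had 242 CPM in KO and 408 CPM in WT, and Ndufa3 258 CPM in KO and 414 CPM in WT, both lower by more than 1.5-fold. Ndufa7, with the most UMIs of the complex over both libraries, had 601 CPM in KO cells and 676 CPM in WT cells, a ratio of -0.44 that stayed within 1.5-fold. Several core subunits, among them carriers of the flavin and iron-sulfur centres, were near the median of the complex or above it, with -0.58 for Ndufs1, -0.42 for Ndufs3, -0.44 for Ndufs7, -0.60 for Ndufs8, -0.28 for Ndufv1 and -0.52 for Ndufv2. Ndufa8 stood highest at -0.15, with 126 CPM in KO and 116 CPM in WT. Ndufb4b and Ndufa11b had the ratios -1.81 and -1.18 on low levels, with 49 UMIs in KO and 207 in WT for Ndufb4b and 142 and 388 for Ndufa11b. Both are copies of Ndufb4 and Ndufa11, so that the split of reads between copies is uncertain; Ndufb4 itself had 24.9 CPM in KO and 24.2 CPM in WT and Ndufa11 207 CPM in KO and 255 CPM in WT. Ndufb11b had 1 UMI in KO and 0 in WT and was not measured.

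Complex II, which also belongs to the citric acid cycle, had 1 of 4 subunits lower. Sdha, the flavoprotein that oxidises succinate, had 110.2 CPM in KO cells and 153 CPM in WT cells, a ratio of -0.74 (-0.84 to -0.64), and the iron-sulfur subunit Sdhb, the most abundant, had 139.6 CPM in KO and 165 CPM in WT, a ratio of -0.51. The membrane anchors Sdhc and Sdhd were at -0.32 and -0.09. In complex III 4 of 9 were lower and 0 higher, at a median of -0.51. The lowest were small subunits: Uqcr11 had 414 CPM in KO cells and 819 CPM in WT cells, a ratio of -1.25 (-1.30 to -1.20), Uqcrq had 497 CPM in KO and 836 CPM in WT, and Uqcr10 416 CPM in KO and 658 CPM in WT. Cytochrome c1, encoded by Cyc1, had 158 CPM in KO and 236 CPM in WT, a ratio of -0.85. The core proteins Uqcrc1 and Uqcrc2 and the Rieske iron-sulfur protein Uqcrfs1 stood at -0.45, -0.51 and -0.30, and the most abundant gene Uqcrh at -0.47. Cycs, the soluble electron carrier cytochrome c, had 439.8 CPM in KO cells and 636 CPM in WT cells, a ratio of -0.80 (-0.85 to -0.75).

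Complex IV, the terminal oxidase, had 11 of 15 measured nuclear subunits lower and 2 higher, at a median of -0.78. Cox5a had 524 CPM in KO cells and 939 CPM in WT cells, a ratio of -1.11 (-1.15 to -1.07). Cox8a, with the most UMIs of the complex, had 1128 CPM in KO cells and 1705 CPM in WT cells, a ratio of -0.86 (-0.90 to -0.83), and Cox4i1 had 1232 CPM in KO and 1594 CPM in WT, a ratio of -0.64. Cox7c and Cox6a1 stood at -1.04 and -1.04, and Ndufa4, which was first described in complex I and is now placed in complex IV, at -0.78. Cox6b1 was within 1.5-fold at -0.50. Cox7a2l, which takes part in joining complexes III and IV into supercomplexes, was above 0 with 360.1 CPM in KO cells and 249 CPM in WT cells, a ratio of 0.27 (0.20 to 0.33). The 2 that were higher were sparse: Cox6b2 had 51 UMIs in KO and 35 in WT, a ratio of 0.81 (0.16 to 1.47), and Cox8b had 34 and 22, a ratio of 0.89 (0.08 to 1.74). Ndufa4l2, Cox4i2, Cox6a2, Cox7b2 and Cox8c had at most 6 UMIs each over both libraries.

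Of the 17 ATP synthase genes 9 were lower and 1 higher, at a median of -0.63. Atp5k, the membrane subunit e at chr5:108433246-108434399 on GRCm38.p6, had 601 CPM in KO cells and 1365 CPM in WT cells, a ratio of -1.45 (-1.49 to -1.41). Atp5md, a small membrane subunit at chr19:47083471-47090647, had 324 CPM in KO cells and 729.8 CPM in WT cells, a ratio of -1.44 (-1.50 to -1.39). Atp5o, of the peripheral stalk, followed at -0.99. Atp5k had the most UMIs of the complex over both libraries. In the F1 part, which makes ATP, the alpha and beta subunits Atp5a1 and Atp5b stood at -0.47 and -0.49, gamma (Atp5c1) at -0.40 and delta (Atp5d) at -0.44, all above the median of the complex, and epsilon (Atp5e) at -0.73, past 1.5-fold. The proton-carrying c ring is made from 3 genes for the same mature protein, and these parted. Atp5g1 had 719 CPM in KO cells and 960.5 CPM in WT cells, a ratio of -0.69 (-0.73 to -0.65), and Atp5g3 499 CPM in KO and 685 CPM in WT, a ratio of -0.72. Atp5g2, at chr15:102662868-102671047, had 364 CPM in KO cells and 186 CPM in WT cells, a ratio of 0.70 (0.63 to 0.77), and was above 0 on all 3 scales. Atp5g1 remained the most abundant of the 3 in both libraries.

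The 8 complex I assembly factors, which help to build the enzyme but are not part of it, had 0 members past 1.5-fold. Their ratios ran between -0.34 and 0.52, with a median of -0.15. Ndufaf6 was highest, with 11.4 CPM in KO and 6.62 CPM in WT, followed by Ndufaf8 at 0.15 and Ndufaf1 at -0.02, and Ndufaf2, the most abundant, had 72.8 CPM in KO and 64.5 CPM in WT. Among 31 assembly factors outside the rule, which serve all complexes, 2 were lower and 1 higher, at a median of -0.12. These were Cox16 at -0.69 and the copper chaperone Cox17 at -0.64, and Sdhaf1, which matures complex II, at 0.65.

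The mitochondrial genes lay in a narrow range in luminal secretory cells apart from ND4L and ND6. ND4L had 0.0658% in KO cells and 0.153% in WT cells, a ratio of -1.53 (-1.56 to -1.49), and ND6, the only member on the other strand of the circle, had 0.00913% in KO cells and 0.0185% in WT cells, a ratio of -1.32 (-1.42 to -1.22). The other 11 ran from -0.90 for ND5 to -0.62 for ND1. Among the abundant ones, COX1 had 1.23% in KO cells and 1.63% in WT cells, COX3 1.22% in KO cells and 1.78% in WT cells and ATP6 1.06% in KO cells and 1.47% in WT cells, with ratios of -0.71, -0.85 and -0.78. CYTB, of complex III, had 0.661% in KO cells and 0.923% in WT cells, a ratio of -0.79. ND4, which shares its transcript and 7 bases with ND4L as printed above, had 0.410% in KO cells and 0.568% in WT cells, a ratio of -0.78. ATP8 and ATP6, the other overlapping pair, had nearly the same ratio, -0.75 and -0.78. The ribosomal RNAs mt-Rnr1 and mt-Rnr2, made from the same strand but not members, were at -0.10 and -0.18.

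As a share of the UMIs of the 13 genes, which no outside scaling touches, ND4L made up 1.01% in KO and 1.70% in WT luminal secretory cells, 1.27% and 1.71% in basal cells, and 0.837% and 1.495% in hormone-sensing cells. ND6 made up 0.141% and 0.205%, 0.242% and 0.318%, and 0.145% and 0.198%, in the same order. Both were lower in KO in all 3 classes, with counting intervals that did not meet for ND4L. ND1 had the larger share in KO, 7.37% against 6.57% in luminal secretory cells. In both libraries and all 3 classes COX1 and COX3 had the largest shares and ATP6 the next, with COX3 at 18.8% in KO and 19.8% in WT luminal secretory cells and COX1 at 19.0% and 18.1%.

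**Figure D3:**
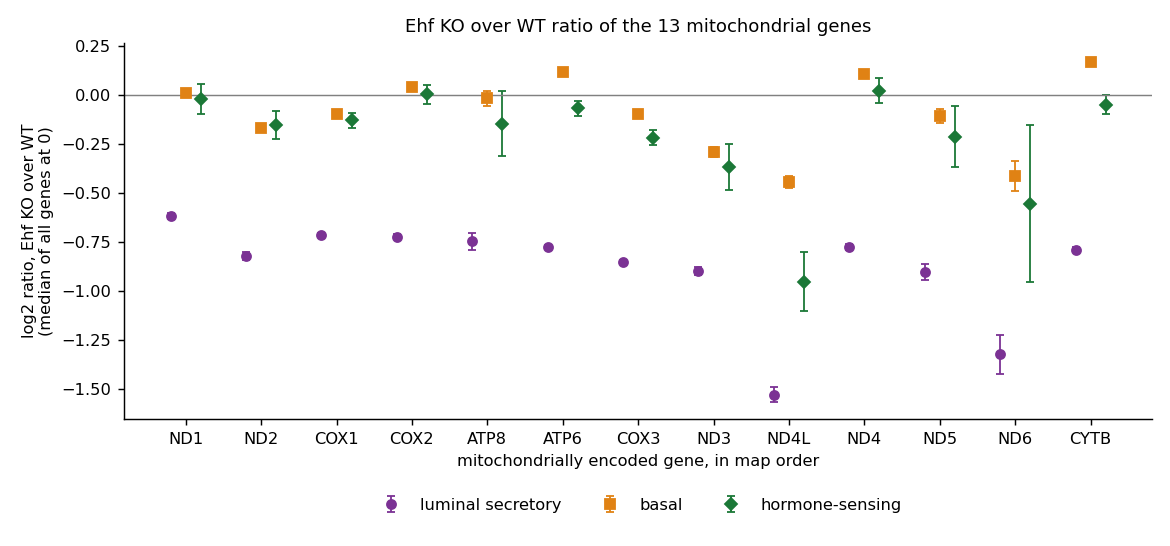
Log2 ratio of KO over WT of the 13 mitochondrial genes in map order, with 95% counting intervals, in luminal secretory (circles), basal (squares) and hormone-sensing cells (diamonds). Luminal secretory values lie between -1.53 and -0.62 and below the other classes at every gene, and ND4L and ND6 are the lowest in each class.

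In basal cells, the contractile outer layer, the members differed little between libraries, although different clusters held most KO and WT cells. Of 92 measured nuclear members 3 were lower and 0 higher, at a median of 0.01, where 6.54% of all 12211 genes were lower and 6.11% higher. The 3 were Atp5k, with 622 CPM in KO cells and 972 CPM in WT cells, a ratio of -0.62 (-0.65 to -0.58), and the sparse copies Ndufb4b (-0.96) and Ndufa11b (-0.88). Atp5md was next, at -0.45. The highest was Atp5g2, with 187 CPM in KO cells and 129 CPM in WT cells, a ratio of 0.55 (0.47 to 0.64), followed by Uqcrb (0.37), Sdhd (0.32) and Ndufb5 (0.31). The 13 mitochondrial members had a median of -0.10, between -0.44 for ND4L and 0.17 for CYTB. Plain CPM and CPM outside milk protein genes gave the same counts in this class.

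In hormone-sensing cells, which carry the oestrogen and progesterone receptors, 81 nuclear members were measured from 151 KO and 123 WT cells. There 2 were lower and 0 higher, at a median of -0.06, where 8.66% of all 4331 genes were lower and 9.28% higher. The 2 were Atp5md, with 695 CPM in KO cells and 1191 CPM in WT cells, a ratio of -0.75 (-0.90 to -0.59), and Atp5k, with 866 CPM in KO cells and 1414 CPM in WT cells, a ratio of -0.68 (-0.82 to -0.54). Ndufa3 came next at -0.55. The highest were Sdhd (0.51), Ndufa9 (0.41) and Ndufv1 (0.40), each with a counting interval that included 0. The mitochondrial members had a median of -0.15, with ND4L lower at -0.95 (-1.10 to -0.80) and ND6 at -0.56 (-0.96 to -0.15). Some abundant genes were highest in this class, as Cox5a with 1307 CPM in KO and 1332 CPM in WT and Cox4i1 with 1999.8 CPM in KO and 1798 CPM in WT.

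The 3 classes come from the same 2 libraries, so their ratios are given side by side and not as repeats. Atp5k stood at -1.45, -0.62 and -0.68 in luminal secretory, basal and hormone-sensing cells, Atp5md at -1.44, -0.45 and -0.75, and Ndufa3 at -0.95, -0.40 and -0.55. Ndufc1 stood at -1.02, -0.33 and -0.55, and Cox7c at -1.04, -0.33 and -0.33. Atp5g2 was above 0 in each, at 0.70, 0.55 and 0.30. Cox5a was -1.11 in luminal secretory, 0.11 in basal and 0.00 in hormone-sensing cells, Cycs -0.80, 0.28 and -0.05, and Ndufa1 -1.22, -0.07 and 0.01. These genes were picked after their values were seen, as examples of both kinds, and the difference between classes was not tested. Of 81 nuclear members measured in all 3 classes, 7 lay more than 0.2 below 0 in each and 1 more than 0.2 above. Among all 4218 such genes the shares were 6.8% below and 7.54% above. Of the 13 mitochondrial members 3 lay below and 0 above by the same bound.

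Within each library, luminal secretory cells were set against basal cells. In KO 20 of 93 nuclear members were higher and 2 lower, with a median of 0.33, where 25.5% of all genes were higher and 29.9% lower. In WT 71 of 93 were higher and 1 lower, with a median of 0.81, where 30.3% of all genes were higher and 31.9% lower. Mitochondrial members had medians of 0.17 in KO and 0.88 in WT, with 1 and 10 of 13 higher. Outside milk protein genes the nuclear split was 25 higher and 2 lower in KO and 50 higher and 4 lower in WT. In plain CPM it was 13 higher and 2 lower in KO and 8 higher and 12 lower in WT, so that the WT direction rests on leaving the milk UMIs aside. The median of all genes in plain CPM was -0.07 in KO and -0.89 in WT before centring. All 17 ATP synthase genes were higher in WT luminal secretory cells, and 31 of 40 of complex I. Among abundant genes, Atp5g1 had 960.5 CPM in luminal secretory and 234 CPM in basal cells of WT, a ratio of 2.18 there and 1.26 in KO. Ndufc2 stood at 2.08 in WT and 1.39 in KO, Cox5a at 2.03 and 0.86, and Ndufv3 at 1.96 and 1.20. The 2 lower in KO were Cox6b2 and Ndufa11. Lowest in WT after Cox6b2 were Ndufaf6 (-0.52), Ndufaf2 (-0.44), Ndufaf7 (-0.42) and Cox7a2l (-0.22), and 0 of the 8 assembly factors were past 1.5-fold in either library.

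Complex IV has alternative isoforms of several subunits, some known from heart and skeletal muscle or from testis, and these parted by cell class. Cox7a1, the isoform of heart and skeletal muscle, had 258 UMIs in KO and 551 in WT luminal secretory cells, but 22 and 11 in basal cells. Its level was 23.6 CPM in KO and 34.8 CPM in WT luminal secretory cells, against 0.984 CPM in KO and 0.817 CPM in WT basal cells, a luminal over basal ratio of 4.49 in KO and 5.55 in WT. The common isoform Cox7a2 was far more abundant, with 659 CPM in KO and 975 CPM in WT luminal secretory cells and 439 CPM in KO and 434 CPM in WT basal cells. Cox6b2, known from testis, had the opposite pattern, with 4.66 CPM in KO and 2.21 CPM in WT luminal secretory cells, against 22.3 CPM in KO and 22.6 CPM in WT basal cells, ratios of -2.36 and -3.21. Cox8b was listed with 34 UMIs in KO and 22 in WT luminal secretory cells and with 8 and 3 in basal cells. The common forms Cox6b1 and Cox8a exceeded these by a wide margin everywhere. Of the c ring genes, Atp5g1 was the most abundant in luminal secretory cells. In basal cells Atp5g3 was above Atp5g1, by little in KO (287 against 280.4 CPM) and by more in WT (294 against 234 CPM).

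**Figure D4:**
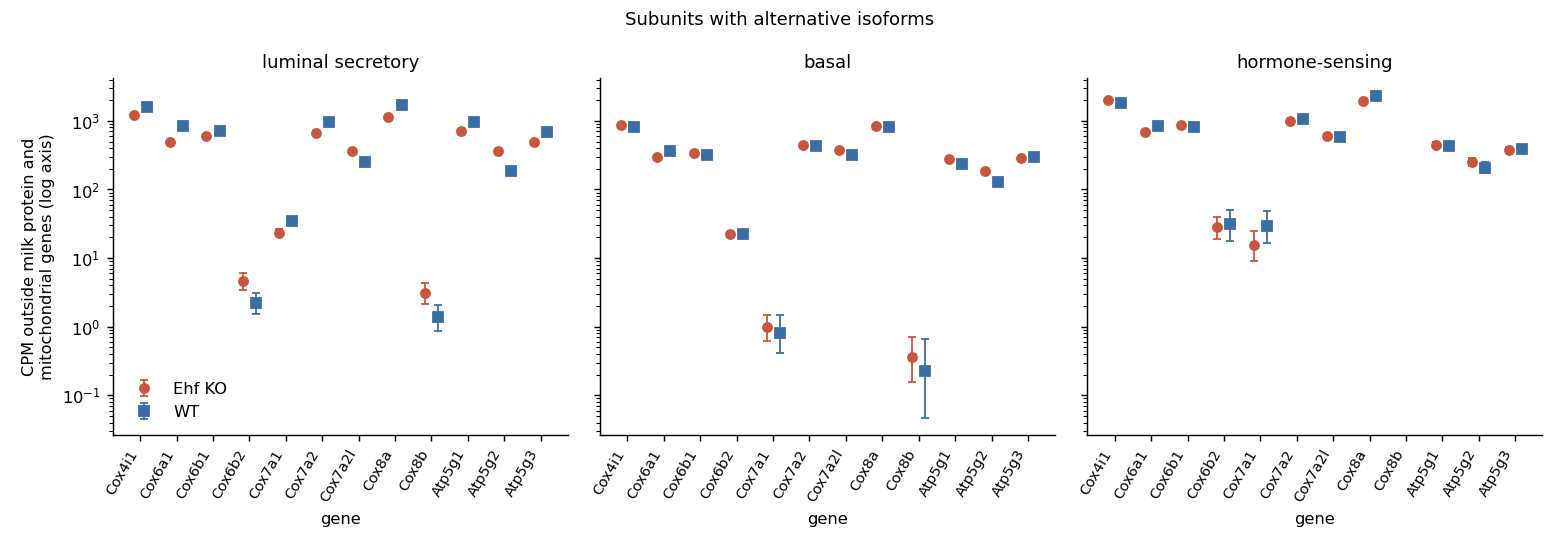
Level of 12 genes with alternative isoforms in luminal secretory (left), basal (middle) and hormone-sensing cells (right), on a log axis, with KO circles left of WT squares and 95% counting intervals. Cox7a1 stands near 34.8 CPM in WT luminal secretory cells and near 0.817 CPM in WT basal cells, and Cox6b2 the other way round. Cox8b has no point in hormone-sensing cells, where it had 0 UMIs in both libraries.

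Luminal secretory cells were then ordered by the casein share of their UMIs, a measure of how far a cell had gone into milk production. Bins ran from under 2% over 2 to 5%, 5 to 10%, 10 to 20% and 20 to 30% to 30% or more, and held 317, 148, 162, 142 and 47 KO cells and 69, 50, 87, 370, 1299 and 692 WT cells, with 12 KO cells in the last bin, which was not used for KO. The summed nuclear members were higher in each further KO bin, at 22644, 26883, 30508, 33203 and 38351 CPM. In WT they stood at 18264, 23035, 28871, 34547, 40575 and 40343 CPM, level over the last 2 bins. The mitochondrial members stood at 5.98, 6.16, 6.44, 6.96 and 8.32% in KO and at 5.13, 7.78, 8.17, 8.73, 8.85 and 9.73% in WT. In WT the largest step of the mitochondrial level was the first, between under 2% and 2 to 5% casein, and in KO the last. From the lowest to the highest used bin the nuclear sum differed by 0.76 on the log2 scale in KO and 1.14 in WT, and the mitochondrial sum by 0.48 and 0.92. These levels leave out milk protein UMIs but not other shifts in composition, and centred on the median gene the nuclear difference was 1.00 in KO and 1.19 in WT. Depth moved with the bins: the median was 6974, 11644, 11515, 14054 and 15151 UMIs in KO and 2928, 3114, 4224, 5906, 9170 and 11882 in WT. Taken over all UMIs, milk included, basal markers summed to 1282 CPM in KO and 1987 CPM in WT in the lowest bin, and to 654 and 436 CPM at 20 to 30%. On that scale the median of all genes itself differed by -0.79 in KO and -1.04 in WT between the lowest and the highest used bin. In the highest over the lowest bin 7 of 8 cell cycle genes were lower and 0 higher in KO, and 2 were lower and 4 higher in WT, with medians of -1.08 and 0.61. Of 10 dissociation stress genes 1 was lower in KO and 8 in WT, with medians of -0.22 and -0.86. With each cell thinned to 2000 UMIs the nuclear difference was 0.80 in KO, and the part of the markers and lists in these differences was not tested.

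**Figure D5:**
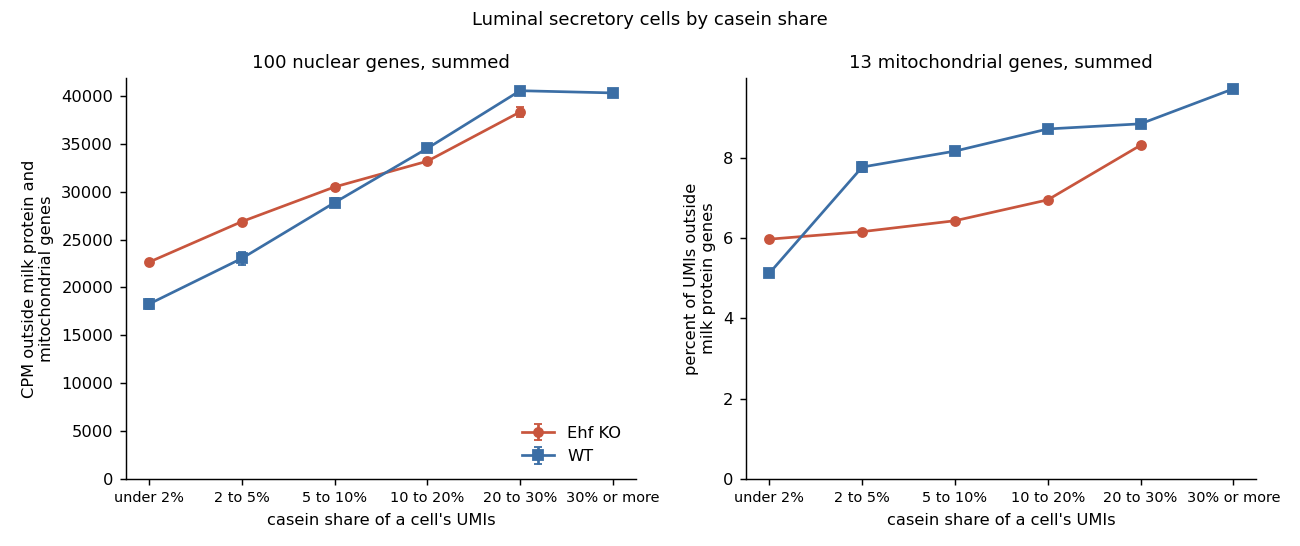
Summed level of the nuclear (left) and mitochondrial (right) members in luminal secretory cells by casein share, with KO as circles and WT as squares and 95% counting intervals. Both libraries climb with casein share up to 20 to 30% in the left panel, starting at 22644 CPM in KO and 18264 CPM in WT, while in the right panel KO lies below WT from 2 to 5% on.

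By gene and on the same uncentred scale, where the median of all genes differed by -0.24 in KO and -0.05 in WT, 57 of 86 nuclear members were higher in the highest KO bin and 0 lower, where 13.5% of all genes were higher and 30.7% lower. In WT 71 of 90 were higher and 3 lower, where 29.6% of all genes were higher and 29.1% lower. Ndufa1 had 115, 146, 176, 224 and 335 CPM in the KO bins and 67.0, 129, 178, 231, 336 and 416 CPM in the WT bins, higher at each step in both. Its difference was 1.55 in KO and 2.64 (2.00 to 3.35) in WT. Ndufv3 differed by 1.78 and 2.20, Atp5o by 1.21 and 2.03, and Ndufab1, the acyl carrier protein that is also a complex I subunit, by 0.61 and 2.12. Cycs had 314 CPM in the lowest and 519 CPM in the highest KO bin, and 164 and 663 CPM in WT. Cox7a2l went down, with 407 CPM in the lowest and 344 CPM in the highest KO bin, and 392 and 223 CPM in WT, a difference of -0.81 (-1.09 to -0.52) in WT. Atp5g2 was level in WT at -0.00 and at -0.17 in KO, while Atp5g1 was at 1.92 and 1.23. The assembly factors Ndufaf7 (-1.48) and Ndufaf2 (-0.36) were lower in the highest WT bin, and the summed assembly factors of complex I differed by 0.06 in KO and 0.15 in WT. Ndufa11b and Ndufb4b, also picked out in WT at 3.13 and -0.98, had 1 and 8 UMIs in the lowest WT bin and intervals of 0.63 to 8.44 and -2.03 to 0.29. Of the mitochondrial genes 2 of 13 were higher in KO and 11 in WT. ATP8 was level in both, at -0.06 and 0.04, and CYTB was at 0.73 and 1.16.

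The libraries were then compared within each casein bin, each bin scaled to its own median gene. The casein share was taken as counted, free RNA included. Caseins took 0.110% of the UMIs of basal cells in KO and 1.08% in WT, so the lowest bins in particular are not strictly matched. For nuclear members the median KO over WT ratio was 0.17, 0.10, 0.05, 0.03 and -0.09 from the lowest bin to 20 to 30%, against -0.52 over the class as a whole. The counts lower were 0, 2, 1, 3 and 7 of 85 to 92 measured, and those higher 10, 10, 5, 2 and 2. Of all genes 17.0%, 19.0%, 13.2%, 10.9% and 15.7% were lower and 18.4%, 20.3%, 14.0%, 9.57% and 12.7% higher. For mitochondrial members the medians were 0.03, -0.55, -0.50, -0.46 and -0.17, and 0, 6, 5, 4 and 2 of 13 were lower. By their medians, nuclear members were thus closer to WT within a bin than over the class as a whole. Their summed level, which is not centred, was above WT by 0.31 under 2% and by 0.22 at 2 to 5%. At 20 to 30% it stood at -0.08. Mitochondrial members were below WT in every bin from 2 to 5% on, by less at 20 to 30%, where all 13 still lay below 0. Atp5k, ND4L and Atp5g2 stayed on their side of 0 in every bin, at distances that varied. Atp5k stood at -0.42, -0.64, -0.52, -0.79 and -0.78, and Atp5g2 at 0.70, 1.14, 0.83, 0.79 and 0.60. ND4L stood at -0.27, -1.26, -1.23, -0.99 and -0.79. Cox5a was near 0 in the lowest 3 bins and at -0.33 and -0.44 in the other 2. Cells with at least 3 UMIs over the 8 cell cycle genes were counted as cycling, a rule not scaled for depth. They made up 33.1, 59.5, 51.9, 46.5 and 31.9% of the KO bins and 8.70, 10.0, 26.4, 15.4 and 18.2% of the same WT bins. KO cells were deeper in each of these bins, with medians of 11644 UMIs in KO and 3114 in WT at 2 to 5%. So these percentages are not comparable between libraries, and the part of cycling cells was not tested.

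The gap between libraries differed between the clusters of the class, as did their casein shares. In the luminal progenitor-like cluster the nuclear level was 28329 CPM in KO and 30925 CPM in WT and the mitochondrial level 6.39% and 8.39%, at casein shares of 6.63% and 14.6%. In the main alveolar-like cluster, with 27 KO and 1631 WT cells, it was 37304 and 40785 CPM and 8.92% and 9.39%, at casein shares of 28.4% and 29.9%. The alveolar-like cluster led by H2ac24, with 19 KO and 306 WT cells, had 37981 and 40395 CPM and 8.55% and 8.64%, at 21.6% and 29.6% casein. A wide gap remained in the alveolar-like cluster led by Ccl6, with 53 KO and 108 WT cells. It had 24361 and 34888 CPM and 6.03% and 8.29%, at casein shares of 6.97% and 27.1%. Within the luminal progenitor-like cluster, an alternative chosen after seeing the data, 7 of 93 nuclear members were lower and 2 higher, at a median of -0.12, where 11.1% of all genes were lower and 11.0% higher. Of the mitochondrial members 7 of 13 were lower, with a median of -0.60. Atp5k was at -0.87, Atp5md at -0.83, ND4L at -1.18 and Atp5g2 at 0.88.

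Per cell, each thinned to 2000 UMIs, the nuclear members took a median of 2.80% of the UMIs outside milk protein and mitochondrial genes in KO luminal secretory cells, with quartiles of 2.21% and 3.34%, and 3.89% in WT, with quartiles of 3.20% and 4.61%. The mitochondrial members took 6.12% (5.06% to 7.76%) and 8.40% (7.03% to 10.8%). In basal cells the medians were 2.10% and 2.15% for nuclear and 5.28% and 5.29% for mitochondrial members, with 193 KO and 2943 WT cells too shallow to enter. In luminal secretory cells the middle quartiles of KO and WT overlapped little for nuclear members and more for mitochondrial ones. In basal cells they overlapped nearly wholly. These quartiles describe cells of 1 library each, not replicates.

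Genes known from the control of mitochondrial biogenesis and of mitochondrial DNA were read from lists, beside the 18.0% of all genes that were lower and the 15.4% that were higher in luminal secretory cells. Of 14 measured regulators of mitochondrial biogenesis 3 were lower and 1 higher in KO luminal secretory cells, with a median of -0.08, shares near or under those of all genes. The lower ones were Prkaa2, a catalytic subunit of the energy sensor AMPK, with 40.6 CPM in KO and 98.0 CPM in WT, a ratio of -1.54, the nuclear receptor Esrra, with 40.2 and 92.4 CPM, a ratio of -1.47, and its coactivator Ppargc1b, with 10.6 and 21.3 CPM, a ratio of -1.28. The higher one was Prkaa1, the other catalytic subunit of AMPK, at 0.61, and the genes of the factors NRF1 and TFAM, which bind nuclear and mitochondrial promoters, stood just under 1.5-fold at 0.58 and 0.56. In plain CPM the 3 lower genes were at -0.67, -0.60 and -0.41. In basal cells Prkaa2, Esrra and Ppargc1b were at -0.55, 0.05 and -0.91, and in hormone-sensing cells at 0.03, 0.76 and -1.07. Only 3 of the 16 listed regulators had enough UMIs to be measured in hormone-sensing cells, with 1 higher and 0 lower. Prkaa2 and Ppargc1b were not among these 3, so their ratios in that class are too sparse to be read as differences. Ppargc1a, another coactivator, was at 0.01 in luminal secretory and -1.65 in basal cells. Along the casein bins the highest over the lowest differed by 1.04 in KO and 2.05 in WT for Prkaa2, by 1.51 and 1.68 for Esrra, and by 2.28 and 1.64 for Ppargc1b. Of 13 measured genes of mitochondrial DNA transcription and replication 0 were lower and 0 higher in luminal secretory cells, with a median of 0.11. The largest ratios there were 0.57 for Top1mt, the mitochondrial topoisomerase, 0.51 for Mterf4, and -0.46 for Polg2, the accessory subunit of the mitochondrial DNA polymerase.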

How the data were processed

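UMI counts per gene and cell barcode were taken as deposited. The authors' processing named Seurat 4.0.4 and GRCm38, per the submitters' processing notes, while the sources used here do not name the aligner or counter, nor how barcodes were selected. The deposited tables held 7275 KO and 11258 WT barcodes with 40066795 and 48720938 UMIs, of which features without a gene symbol took 1.74% and 1.36%.

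Kept cells had 500 genes and 1000 UMIs or more and no more than 20% of UMIs from mitochondrial genes, and called doublets were left out (scanpy 1.11.5 with its Scrublet step). In KO the caller marked 0 cells and so did not work there; 38 KO cells exceeded the WT threshold. Clusters (leidenalg 0.10.2, resolution 1.0) were made without milk, lipid, mitochondrial, ribosomal and member genes. Free RNA was estimated at 3.97% of UMIs in KO and 5.91% in WT. UMIs were summed per class and library, and log2 ratios were centred on the median gene. Exact Poisson, conditional and Clopper-Pearson 95% intervals (scipy 1.17.1) cover counting error only. Only the ratio step was tested on simulated data, with counts for luminal secretory cells drawn from a pooled profile of both libraries. The difference in milk share between the libraries was not simulated.

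The members and gene lists were chosen with earlier results of these data known. Genes named were all mitochondrial members, the highest and lowest ratios per comparison (8 each in luminal secretory, 4 in basal, 3 in hormone-sensing cells, 5 for the class and casein comparisons), the most abundant per complex, the isoforms, and up to 3 per list. Other genes named for their role, such as core subunits of complex I, Ndufc1, Cox7c, Nrf1, Tfam and Prkaa1, were chosen after their values were seen. Scale, filters, weighting, thinning, doublets, free RNA and cluster resolution were varied. Some members of the gene groups are not reported here.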

Additional observations from a re-analysis of the deposited data

Results flagged for a closer look

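For 13 members the KO over WT ratio lay below 0 in luminal secretory cells, past 1.5-fold, and above 0 in basal or hormone-sensing cells, with a counting interval that left out 0. The share of all genes that met this rule was not counted, so the count does not set the members apart from other genes. Among complex IV subunits, Cox5a stood at -1.11 in luminal secretory and 0.11 in basal cells. Cox8a stood at -0.86 in luminal secretory and 0.081 in basal cells, and Cox7b stood at -0.81 in luminal secretory and 0.13 in basal cells. Cox5b stood at -0.70 in luminal secretory and 0.11 in basal cells, Cox6c stood at -0.65 in luminal secretory and 0.11 in basal cells, and Cox4i1 stood at -0.64 in luminal secretory and 0.084 in basal cells. Cox4i1 was also above 0 in hormone-sensing cells, at 0.18. Cytochrome c showed the same contrast, as Cycs stood at -0.80 in luminal secretory and 0.28 in basal cells. In ATP synthase, Atp5g1 stood at -0.69 in luminal secretory and 0.29 in basal cells, and Atp5e stood at -0.73 in luminal secretory and 0.044 in basal cells. Of the mitochondrial genes, CYTB stood at -0.79 in luminal secretory and 0.17 in basal cells, ATP6 stood at -0.78 in luminal secretory and 0.12 in basal cells, ND4 stood at -0.78 in luminal secretory and 0.11 in basal cells and COX2 stood at -0.72 in luminal secretory and 0.041 in basal cells. The difference between the classes was not tested, since each rests on 1 library per genotype. In plain CPM the luminal secretory ratio was -0.24 for Cox5a, and at 0 or above for the other 12, between 0.0049 for Cox8a and 0.23 for Cox4i1.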

How the results depend on the processing

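The direction of the luminal secretory comparison turned with the scale. In plain CPM the KO over WT medians were 0.34 for nuclear and 0.079 for mitochondrial members, with 1 and 1 lower, and the ratios turned to 0.25 for ND1, 0.048 for ND2, 0.16 for COX1, 0.15 for COX2, 0.12 for ATP8, 0.094 for ATP6, 0.017 for COX3, 0.092 for ND4 and 0.079 for CYTB. Plain CPM divides by a total that holds the milk protein UMIs, 10.5% of the class in KO and 39.3% in WT. The luminal secretory over basal medians in plain CPM were 0.25 nuclear and 0.097 mitochondrial in KO and -0.080 and -0.014 in WT, and Ehf in luminal secretory cells stood at -0.50. Plain levels were 23833 CPM in KO and 21320.1 CPM in WT and 5.81% and 5.47% in luminal secretory cells, and 19893 and 19819.6 CPM and 5.41% and 5.51% in basal cells. Outside milk protein genes the luminal secretory medians were -0.22 with 17 lower and -0.48 with 4 lower, and outside mitochondrial genes as well -0.26 with 20 and -0.52 with 4. The basal mitochondrial median was -0.12 and -0.12 on these scales. The luminal progenitor-like cluster alone, chosen after seeing the data, gave -0.12 with 7 lower and -0.60 with 7 lower.

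The other alternatives turned no summary value, and those below moved it by more than counting error. The luminal secretory mitochondrial median was -0.83 with 1 UMI in each library as the minimum, -0.75 with 200 UMIs, -0.76 with called doublets kept, -0.72 without cycling cells, -0.75 with equal weight per cell, -0.82 after subtraction of free RNA, -0.74 without a mitochondrial maximum and -0.70 thinned to 2000 UMIs. The basal mitochondrial median was -0.059 at a maximum of 10% mitochondrial UMIs, -0.12 without one, -0.061 with equal weight and -0.079 thinned, and the hormone-sensing one -0.074 with 1 UMI as the minimum. A maximum of 10% gave 28749.9 and 39097 CPM and 6.16% and 8.50% in KO and WT luminal secretory cells, 5.29% and 5.33% in basal cells, and luminal secretory over basal mitochondrial medians of 0.13 and 0.86. No maximum gave 38467 CPM in WT, 6.79% and 9.28% in KO and WT luminal secretory cells, 5.47% and 5.78% in basal cells, and 0.23 for the KO median over basal. Subtraction of free RNA gave 28817 and 39397 CPM and 6.52% and 9.13% in luminal secretory cells, 21129 and 21064 CPM and 5.41% and 5.51% in basal cells, and 0.93 for the WT mitochondrial median over basal. Without milk lipid genes in the total the luminal secretory levels were 28757 and 39799.5 CPM and 6.52% and 9.22%, and the medians over basal 0.43 nuclear and 0.27 mitochondrial in KO and 0.70 and 0.77 in WT.

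The difference between the highest and the lowest casein bin, nuclear first and mitochondrial second, was 0.83 and 0.61 in KO and 1.09 and 0.72 in WT with bins by milk protein share, 0.79 and 0.50 in KO and 1.19 and 0.96 in WT without milk lipid genes and 1.00 and 0.75 in KO and 1.19 and 1.04 in WT when centred. Thinning gave 0.80 and 0.51 in KO and 0.85 for WT mitochondrial members, leaving out cycling cells 0.85 for KO nuclear and 0.87 for WT mitochondrial members, and a maximum of 10% 0.53 for KO mitochondrial members. Leaving out 38 KO cells over the WT doublet threshold, or the alveolar-like cluster led by Ccl6, both chosen after seeing the data, moved no summary value that far. The cause of these shifts was not tested. Of the summary values, 162 stayed within counting error, or within 1.5 times for counts, under an alternative, 90 moved, among them the nuclear luminal secretory median that changed sign in plain CPM, and 3 more changed sign there. The basal nuclear median, near 0 throughout, was 0.013 centred and -0.013 outside milk protein genes. No paired analysis was possible because each genotype had 1 library, and no replicate could be left out. The depth limits sparse members: 6 in luminal secretory, 8 in basal and 19 in hormone-sensing cells had under 50 UMIs.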

Other observations

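Neighbouring mitochondrial pathways were read from lists, beside the 18.0% of all genes that were lower and the 15.4% that were higher in luminal secretory cells. No difference between a list and the chain was tested. Of 13 citric acid cycle genes 5 were lower at 1.5-fold and 0 higher in KO luminal secretory cells, with a median log2 ratio of -0.42 on the centred scale, and 0 were past 1.5-fold in basal cells, with a median of -0.037. Citrate synthase (Cs) had 104 CPM in KO and 163 CPM in WT, a ratio of -0.92, and Dld, a shared subunit of the oxoacid dehydrogenases, 49.95 CPM in KO and 66.6 CPM in WT, a ratio of -0.68. In plain CPM these were at -0.051 and 0.19. Of 14 measured genes of mitochondrial fatty acid oxidation 2 were lower and 1 higher, at a median of -0.31. Acadvl and Echs1, enzymes of the cycle of beta oxidation, stood at -0.72 and -0.70, and Cpt1a, which admits fatty acids into the mitochondrion, at 0.65. Of 9 adenine nucleotide and proton carriers 2 were lower, Ckmt1, a mitochondrial creatine kinase, at -0.96 and the sparse uncoupling protein gene Ucp3 at -2.81, from 1.10 CPM in KO and 6.37 CPM in WT, and of 8 mitochondrial antioxidant genes 4 were lower, with a median of -0.50. Among these Gpx1, a peroxide-reducing enzyme, had 273 CPM in KO and 461 CPM in WT, a ratio of -1.02, and the peroxiredoxins Prdx5 and Prdx3 stood at -0.93 and -0.70.

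The machinery that brings proteins into mitochondria was read beside the 6.54% of all genes lower and the 6.11% higher in basal cells. Of 19 import genes 1 was lower and 1 higher in luminal secretory cells, at a median of -0.026, while 4 were higher and 0 lower in basal cells, with a median of 0.38. Timm22, a subunit of the inner membrane insertion machinery, had 379.9 CPM in KO and 179.8 CPM in WT in luminal secretory cells, a ratio of 0.81, and stood at 0.62 in basal cells, whereas the small chaperone Timm8b was at -0.94 and 0.023. Between the lowest and the highest casein bin the summed import genes differed by 0.052 in KO and 0.64 in WT, and the summed citric acid cycle genes by 0.40 and 0.92.

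Across nuclear members, shorter transcripts had lower KO over WT ratios. Spearman's rho between the median length of a gene's GENCODE transcripts and the ratio was 0.35 over 88 members in luminal secretory cells, 0.30 over 86 in basal and 0.38 over 77 in hormone-sensing cells, against -0.013, -0.091 and -0.094 over all measured genes. These are correlations across genes of the same pair of libraries, which are not independent replicates, and they are given as a description.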
